A study of Homo sapiens with 8 samples.

Results

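Catecholamine synthesis and chromaffin granule genes are described here in IMR32, a human neuroblastoma cell line with amplified MYCN. The 10 members were chosen by symbol and found through their Ensembl identifiers, and they are 10 of the 60651 genes in the deposited table. They are the synthesis enzymes TH, DDC and DBH, the cofactor enzyme GCH1, the transporters SLC18A1, SLC18A2 and SLC6A2, and the granins CHGA, CHGB and SCG2. Ribosome-protected fragments were measured in 8 libraries. In 4 libraries the cells had received CR31B, a silvestrol analog that inhibits the RNA helicase eIF4A, and in the other 4 they had received the solvent DMSO at 0.1%. Treatment lasted 6 h in both groups, followed by cycloheximide, which halts elongating ribosomes, and the labels give the genotype of all cells as wild type. The labels describe biological replicates of this single line and do not state the dose of CR31B or what separates the replicates, so p-values measure only the spread between these libraries.

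Sympathetic neuroblasts and chromaffin cells of the adrenal medulla make noradrenaline from tyrosine. Tyrosine hydroxylase (TH) turns tyrosine into L-DOPA with the cofactor tetrahydrobiopterin, DOPA decarboxylase (DDC) makes dopamine, and dopamine beta-hydroxylase (DBH) makes noradrenaline inside the granule. Vesicular transporters load the amines into granules packed with granins, which condense the cargo, and the plasma membrane transporter takes released noradrenaline back up. Neuroblastoma arises in this lineage, and its catecholamine products and chromogranin A are used clinically as tumour markers.

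Within an mRNA, footprints come mainly from the coding sequence, so the start of that sequence was examined in the 9 members with footprints. It is shown for TH, the first enzyme of the pathway, and for SLC18A2 and SCG2, whose starts held both bases of the context described next. Each line gives the last 6 bases before the start codon, the start codon in capitals and the next 21 bases, from GENCODE release 29 transcripts (GRCh38).
TH: tgagccATGcccacccccgacgccaccacg
SLC18A2: ggagccATGgccctgagcgagctggcgctg
SCG2: tcaaacATGgctgaagcaaagacccactgg
A purine at position -3 together with G at position 4, counted from the A of the start codon as 1, is the textbook strong context for initiation. Of the 9 start sites, 2 held both, those of SLC18A2 and SCG2, against 45.8% of 10240 tested protein-coding genes taken with 1 transcript each.

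Levels are in TPM, here footprint reads per transcript length, scaled to the same sum in each library. All 12 neuroblast markers examined, PHOX2A, HAND2, GATA3 and ISL1 among them, had a mean of at least 1 TPM. Of 7 Schwann cell and 4 leukocyte markers none reached that level. Summed, the Schwann cell markers stood at 0.61 to 1.33 TPM in CR31B and 0.86 to 2.39 TPM in DMSO, and SOX10 was at 0 in every library. Of 9 mesenchymal markers 3 reached 1 TPM (TWIST1, COL1A1 and FN1), with a summed level of 44.0 to 54.7 TPM in CR31B and 38.7 to 61.0 TPM in DMSO, while PRRX1 and POSTN were at 0. Protein-coding genes took 51.8% to 61.3% of TPM per library, and 17857 to 22270 genes were above 0. The CR31B library was shallower than the DMSO library in each of the 4 replicate numbers, as judged from the TPM value of 1 read, and the part of depth in the results was not tested.

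The first question was how high the footprint level of each member was in control cells, a level that follows the amount of mRNA as well as the ribosomes on it. The DMSO means ranked, from high to low, CHGA, DBH, SCG2, CHGB, DDC, SLC6A2, GCH1, TH, SLC18A2 and SLC18A1. Positions are given in GRCh38, from GENCODE. CHGA (chromogranin A, ENSG00000100604.13, chr14:92923080-92935293) led with 77.4 ± 10.2 TPM (SD, n = 4), above 94.4% of 19885 protein-coding genes. DBH (ENSG00000123454.12, chr9:133635348-133659344) followed with 53.7 ± 13.0 TPM (SD, n = 4), above 92.2% of them. The ranges of this pair overlapped, from 65.3 to 90.0 TPM for CHGA and from 41.3 to 70.7 TPM for DBH, but CHGA was higher within all 4 DMSO libraries. SCG2 (secretogranin II, ENSG00000171951.5, chr2:223596940-223602503) had 28.6 ± 3.72 TPM and CHGB (chromogranin B, ENSG00000089199.10, chr20:5911430-5925361) 19.8 ± 2.81 TPM (SD, n = 4 each). Their ranges touched at 23.6 and 23.7 TPM, with SCG2 higher within all 4 libraries.

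The remaining members were much lower. DDC (ENSG00000132437.18, chr7:50458436-50565457) had 8.59 ± 2.08 TPM and SLC6A2, the noradrenaline reuptake transporter (ENSG00000103546.18, chr16:55655604-55706192), 5.19 ± 0.700 TPM (SD, n = 4 each). Neither overlapped its neighbours in the order. GCH1, which starts tetrahydrobiopterin synthesis (ENSG00000131979.20, chr14:54842008-54902852), had 1.76 ± 0.736 TPM (SD, n = 4). TH, the rate-limiting enzyme of the pathway (ENSG00000180176.15, chr11:2163929-2171877), had 0.995 ± 0.212 TPM (SD, n = 4), and 47.9% of protein-coding genes lay below it. Many of those were at 0: by DMSO mean TH ranked 10352 of 19885, and genes at 0 began at rank 15197. SLC18A2, the vesicular monoamine transporter VMAT2 (ENSG00000165646.14, chr10:117241073-117279430), had 0.808 ± 0.102 TPM (SD, n = 4). GCH1 and TH overlapped, as did TH and SLC18A2. SLC18A1, the vesicular transporter VMAT1 typical of chromaffin cells (ENSG00000036565.15, chr8:20144855-20183206), was listed at 0 in all 8 libraries. DBH, the enzyme that makes noradrenaline, thus had 53.7 TPM where TH, the enzyme of the first step, had 0.995 TPM, both levels per transcript length.

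TPM divides by transcript length, whereas footprints come mainly from coding sequence, and that sequence made up from 25.5% of the transcript in GCH1 to 79.6% in CHGB. With levels rescaled to annotated coding length, DBH moved to 109 and CHGA to 117, and the single change of order was that SLC18A2 (2.03) passed TH (1.26). The DBH transcript in GENCODE begins 1015 bases before the RefSeq start, so its length, and with it its level, is uncertain. The values of TH and SLC18A2 rested on an estimated 36 to 174 and 70 to 254 reads per library, and those of CHGA on 5819 to 13135.

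**Figure D1:**
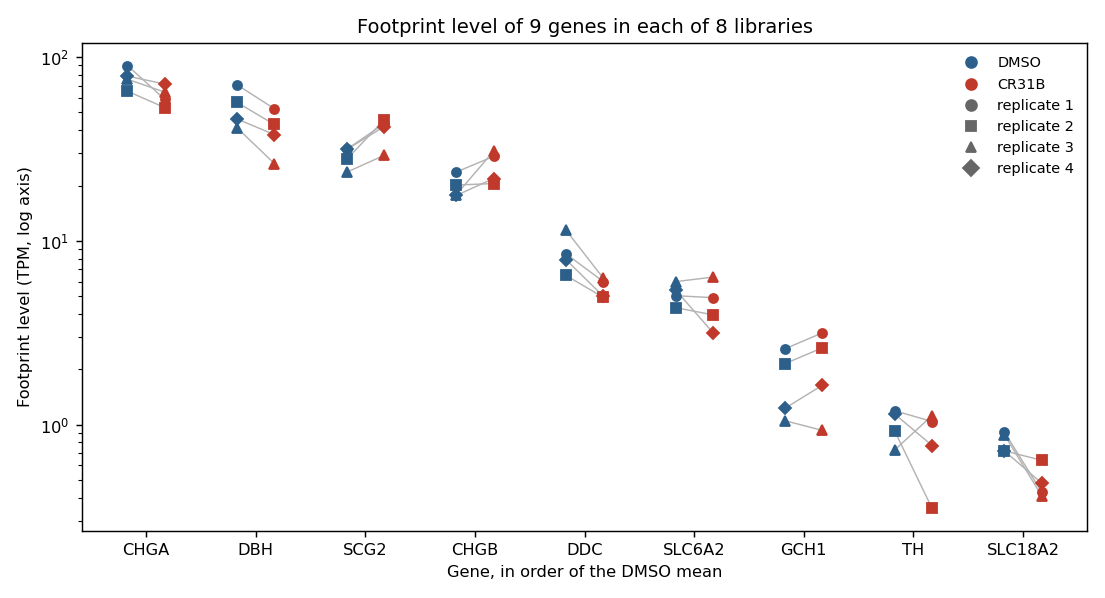
Footprint level (TPM, log axis) of the 9 members above 0 in each library, ordered by the DMSO mean, with DMSO in blue, CR31B in red, and grey lines joining libraries with the same replicate number. DDC and SLC18A2 have no overlap between the groups, DBH and CHGA are lower in CR31B along all 4 lines, and SCG2 and CHGB are higher along all 4.

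The second question was whether eIF4A inhibition changed these footprints relative to the rest of the library. TPM has the same sum in each library, so a change in total translation cannot be seen. Higher, lower, rose and fell thus refer throughout to a gene's share of the footprints, not to its absolute number of ribosomes. Of the 7 members with a mean of at least 1 TPM none passed a limma adjusted p under 0.05. Of 11778 genes tested 7.46% did (879 genes), 3.45% higher and 4.02% lower in CR31B. At an unadjusted p under 0.05, 3 of the 7 passed (DDC, SCG2 and CHGA), against 23.4% of all genes. Libraries were paired by replicate number, which is an assumption, as the labels do not say what separates the replicates. With the replicate number as a block 3 of 7 passed the adjusted threshold, DDC and DBH lower and SCG2 higher. Of all genes 12.3% (1453) then passed, 6.56% lower and 5.77% higher. All 3 calls ended when the block was fitted with no filter on low values (limma adjusted p of 0.114 for DDC, 0.0930 for DBH and 0.0964 for SCG2), a fit in which 0.623% of 28564 genes passed. The median log2 fold change of the 7 was -0.17 against 0.029 over all genes tested. The median absolute log2 fold change was 0.34 against 0.20. Groups did not overlap for 1 of the 7 (DDC), against 16.2% of all genes tested. The direction was the same in all 4 pairs for 5 of the 7 (DDC, DBH, CHGA, CHGB and SCG2), against 38.1% of all genes tested. A footprint level follows both the amount of mRNA and the ribosomes on it, and RNA levels were not analysed here, so these cannot be told apart. In bulk libraries, fewer cells with a transcript and less transcript per cell cannot be told apart either.

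Among the enzymes, DDC showed the clearest separation. It read 8.51, 6.49, 11.4 and 7.91 TPM across DMSO libraries 1 to 4, and 6.01, 4.93, 6.27 and 5.00 TPM across CR31B libraries 1 to 4. Every CR31B library was below every DMSO library, and the mean was 35.3% lower. The limma fit put the log2 fold change at -0.53 with an SE of 0.17 (95% interval -0.90 to -0.16) and an adjusted p of 0.0808, and the exact permutation p was 0.0286, the smallest that 4 against 4 libraries allow. Blocking on the replicate brought the limma adjusted p to 0.0311. Over 16 alternative settings, each with 1 choice changed, it ran from 0.0311 to 0.199 and passed in 3, the others being quantile normalization and centring on the library median.

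DBH read 70.7, 56.7, 41.3 and 46.1 TPM across DMSO libraries 1 to 4, and 52.4, 43.0, 26.4 and 37.9 TPM across CR31B libraries 1 to 4. Both groups had their highest value in replicate 1 and their lowest in replicate 3, and the groups overlapped, but the CR31B library was the lower of each pair. The limma fit put the log2 fold change at -0.43 with an SE of 0.22 (95% interval -0.91 to 0.056) and an adjusted p of 0.272, and the exact permutation p was 0.171. With the block its SE was 0.094 and its limma adjusted p 0.0290, the only one of 17 alternatives that passed, the highest being 0.536. Its estimate shrank to -0.25 without CR31B replicate 3.

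Neither TH nor GCH1 showed a difference beyond the spread between libraries. TH read 1.19, 0.92, 0.73 and 1.14 TPM across DMSO libraries 1 to 4, and 1.04, 0.35, 1.12 and 0.77 TPM across CR31B libraries 1 to 4, so that the groups overlapped widely. As its mean was under 1 TPM it was fitted in limma with no filter on low values, where its log2 fold change was -0.15 with an SE of 0.18 (95% interval -0.56 to 0.26) and its adjusted p 0.729. That value was -0.011 without CR31B replicate 2 and -0.23 without CR31B replicate 3. GCH1 read 2.59, 2.15, 1.05 and 1.23 TPM across DMSO libraries 1 to 4, and 3.16, 2.62, 0.93 and 1.64 TPM across CR31B libraries 1 to 4, with replicate 3 lowest and replicate 1 highest in both groups. By limma its log2 fold change was estimated at 0.14 with an SE of 0.27 (95% interval -0.45 to 0.74) and an adjusted p of 0.802. The sign of the GCH1 value turned to -0.021 without CR31B replicate 1.

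Of the transporters, SLC18A2 was the one with separate groups. It read 0.91, 0.72, 0.88 and 0.72 TPM across DMSO libraries 1 to 4, and 0.43, 0.64, 0.41 and 0.48 TPM across CR31B libraries 1 to 4. No CR31B library reached the lowest DMSO library, and the mean was 39.3% lower. Fitted with no filter, its log2 fold change was -0.28 with an SE of 0.097 (95% interval -0.50 to -0.055) on a scale that understates changes at such low levels. Its limma adjusted p was 0.261 and its exact permutation p 0.0286. In that fit 1.55% of 28564 genes passed, and groups did not overlap for 8.06%. Blocking on the replicate gave a limma adjusted p of 0.364, in a fit where 0.623% of genes passed. SLC18A2 shares 2157 exon bases with PDZD8 on the opposite strand, which stood at 2.15 to 2.68 TPM in CR31B and 1.80 to 4.80 TPM in DMSO. Whether counting used strand is not given in the sources used here, so the SLC18A2 value is uncertain.

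SLC6A2 read 5.03, 4.33, 6.00 and 5.41 TPM across DMSO libraries 1 to 4, and 4.91, 3.96, 6.35 and 3.17 TPM across CR31B libraries 1 to 4. The groups overlapped, and CR31B was the higher in replicate 3. The limma fit put the log2 fold change at -0.17 with an SE of 0.18 (95% interval -0.58 to 0.23) and an adjusted p of 0.629. The value was -0.040 without CR31B replicate 4, -0.11 without DMSO replicate 3 and -0.31 without CR31B replicate 3.

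**Figure D2:**
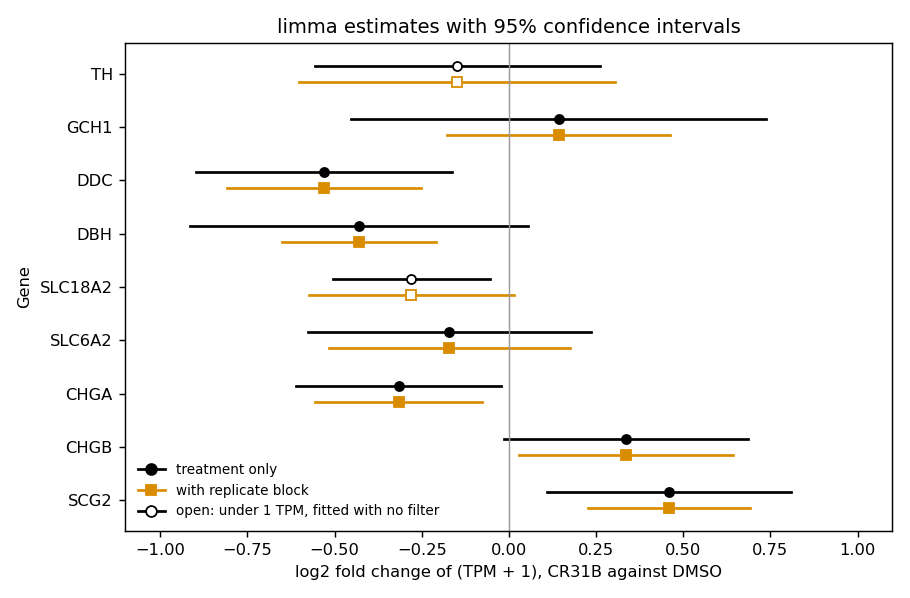
log2 fold change of (TPM + 1) between CR31B and DMSO with 95% confidence intervals from limma, with treatment as the only term (black) and with the replicate number as a block (orange). Open symbols are TH and SLC18A2, which were under 1 TPM and fitted with no filter. The DBH and CHGB intervals span 0 in black and exclude 0 in orange, and the SLC18A2 interval does the reverse. The SCG2, DDC and CHGA intervals exclude 0 in both fits.

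The granins, acidic proteins that form the granule core, did not share a sign. SCG2, the precursor of secretoneurin, read 31.4, 27.8, 23.6 and 31.4 TPM across DMSO libraries 1 to 4, and 43.4, 45.5, 29.2 and 41.8 TPM across CR31B libraries 1 to 4. CR31B replicate 3 lay within the DMSO range, while the other 3 CR31B libraries lay above all DMSO libraries, and the mean was 1.40 times the DMSO mean. The limma fit put the log2 fold change at 0.46 with an SE of 0.16 (95% interval 0.11 to 0.81) and an adjusted p of 0.111, and the exact permutation p was 0.0857. SCG2 passed with the replicate block (limma adjusted p of 0.0280), without CR31B replicate 3 (0.0322, log2 fold change 0.60) and after rescaling over protein-coding genes (0.0434), 3 of 17 alternatives whose highest value was 0.254.

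CHGB read 23.7, 20.1, 17.8 and 17.7 TPM across DMSO libraries 1 to 4, and 28.8, 20.5, 30.8 and 21.8 TPM across CR31B libraries 1 to 4. It was the higher of each pair in CR31B, by 0.026 on the log2 scale in replicate 2 and by 0.75 in replicate 3, and the groups overlapped. The limma fit put the log2 fold change at 0.34 with an SE of 0.16 (95% interval -0.014 to 0.69) and an adjusted p of 0.232; blocking on the replicate gave 0.136.

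CHGA had the opposite sign. It read 90.0, 65.3, 75.8 and 78.8 TPM across DMSO libraries 1 to 4, and 58.9, 53.1, 64.5 and 71.4 TPM across CR31B libraries 1 to 4. The CR31B library was the lower in each pair, with an overlap through DMSO replicate 2 and CR31B replicate 4. The limma fit put the log2 fold change at -0.32 with an SE of 0.13 (95% interval -0.61 to -0.022) and an adjusted p of 0.182, and the exact permutation p was 0.0571; blocking on the replicate gave 0.0877. No alternative brought it past the threshold.

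A ratio of 2 granins within a library does not depend on how TPM was scaled. These ratios were chosen after the values were seen and are given as a description with no test. SCG2 to CHGA was 0.736, 0.856, 0.452 and 0.585 in CR31B replicates 1 to 4 and 0.349, 0.425, 0.312 and 0.399 in DMSO replicates 1 to 4, with no overlap between the groups. CHGB to CHGA was 0.489, 0.386, 0.477 and 0.306 in CR31B and 0.263, 0.308, 0.235 and 0.224 in DMSO, and CR31B replicate 4 lay just under DMSO replicate 2. In CR31B cells the granin footprints thus held more SCG2 relative to CHGA in all 4 pairs.

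**Figure D3:**
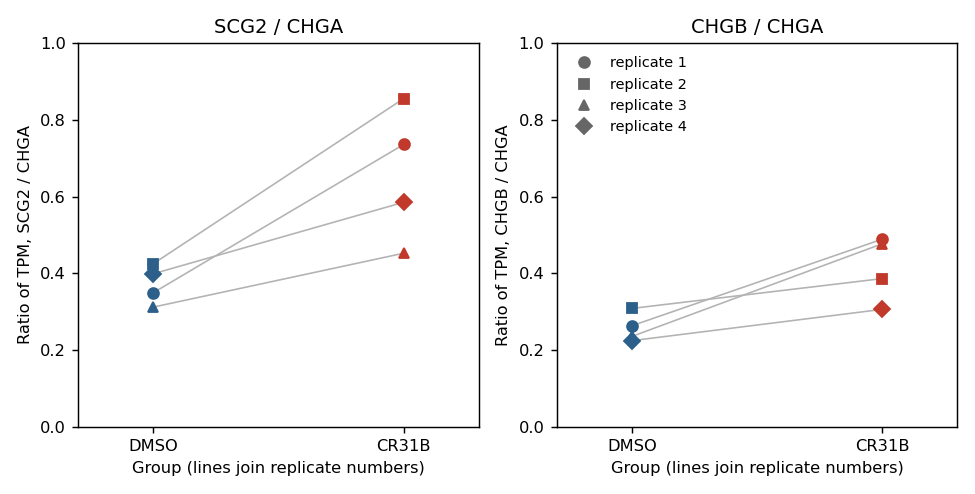
Ratio of TPM values within each library for SCG2 to CHGA (left) and CHGB to CHGA (right), with lines joining libraries of the same replicate number and symbols marking the number. Both ratios are higher in CR31B along all 4 lines, from at most 0.425 in DMSO to at least 0.452 in CR31B for SCG2 to CHGA.

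Summed over the 10 members, footprints came to 199, 175, 166 and 184 TPM in CR31B replicates 1 to 4 and to 234, 184, 179 and 190 TPM in DMSO replicates 1 to 4. The sum was lower in CR31B within each pair and was made up mostly by CHGA and DBH. As no member passed the test, the genes most like CHGA, the member with the highest mean, were sought among 5613 genes of at least 10 TPM. By root mean square distance of log2 values over the 8 libraries, each gene centred on its DMSO mean, they were MFGE8 (0.080) and UBXN1 (0.081), with log2 fold changes of -0.27 and -0.32.

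The annotated 5′ leaders of the members, the part of the mRNA that eIF4A unwinds, were compared as a description. Rocaglates such as silvestrol analogs are known to clamp eIF4A on runs of purines. The longest purine run in the leader was 13 bases in DDC, 12 in DBH and 12 in SCG2, against a median of 8 over 10240 tested protein-coding genes. Of these 3, DDC and DBH were lower in CR31B and SCG2 higher. It was 10 bases in GCH1, 9 in SLC6A2, 8 in TH, 7 in CHGA, 7 in CHGB and 6 in SLC18A2. Leader length was 91 to 280 bases in 8 of these 9 members and 1024 in DBH, with a median of 190 over the same genes. For DBH this leader starts 1015 bases before the RefSeq start, so its run may lie outside the transcript in use. The DDC start lay 52 bases from the nearest RefSeq start, and no such distance was available for SCG2, so their runs are uncertain too. Whether purine runs bear on the changes was not tested.

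Around the members, 8 lists of 151 genes from the same pathway and organelle were examined, of which 99 genes were tested. In these lists 7 genes were higher and 3 lower at a limma adjusted p under 0.05, where 3.45% of all genes tested were higher and 4.02% lower (7.46% together). With the replicate block 23 genes passed, where 12.3% of all genes tested did (5.77% higher and 6.56% lower). More of the 23 were then lower than higher, so the balance of direction depended on the model. The lists were written from general knowledge of the pathway and hold none of the 10 members.

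For the cofactor, 2 of 8 tested genes of tetrahydrobiopterin synthesis and recycling rose, PCBD2 with the larger fold change, and none fell. The list median was 0.047 against 0.029 for all genes, and -0.0090 without CR31B replicate 1. PCBD2, a dehydratase-like cofactor protein, rose from 5.78 ± 1.36 to 10.9 ± 2.57 TPM (SD, n = 4 each; log2 fold change 0.82 with SE 0.18 and limma adjusted p 0.0260). Every CR31B library was above every DMSO library, and the call held in 11 of 16 alternatives. Leaving out 1 library ended the PCBD2 call for CR31B replicates 3 and 4 and DMSO replicates 1 and 4 (limma adjusted p of 0.0511 to 0.0846). PTS and SPR, the enzymes that follow GCH1, had log2 fold changes of -0.067 and -0.17 (limma adjusted p of 0.810 and 0.601).

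Of the genes that break down or transport catecholamines and their precursors, 8 of 18 were tested and 1 passed. SLC3A2, the heavy chain of the carrier that imports tyrosine and other large amino acids, rose from 115 ± 10.2 to 162 ± 26.3 TPM (SD, n = 4 each; log2 fold change 0.49 with SE 0.13 and limma adjusted p 0.0488), a call that held in 6 of 17 alternatives and was lost without any 1 of the 8 libraries (limma adjusted p of 0.0614 to 0.123). MAOA, which oxidises catecholamines, had a log2 fold change of 0.16 (limma adjusted p of 0.693). PNMT, which makes adrenaline, was at 0.26 TPM or less in every library. The list median was 0.14, and it was 0.043 without DMSO replicate 2, 0.076 without CR31B replicate 3 and 0.25 without CR31B replicate 2.

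Of the granule cargo and prohormone processing genes, 15 of 30 were tested, and VGF was the 1 that passed. VGF, a granin-like neuropeptide precursor, read 86.6, 90.5, 80.0 and 76.2 TPM across DMSO libraries 1 to 4, and 209.7, 112.6, 122.3 and 166.7 TPM across CR31B libraries 1 to 4, with no overlap. Its log2 fold change was 0.83 (SE 0.18, limma adjusted p of 0.0246), and the call held in 13 of 17 alternatives. It was lost without CR31B replicate 4 (limma adjusted p of 0.0692), DMSO replicate 1 (0.0543) or DMSO replicate 4 (0.0774). The list as a whole had 7 of 15 genes above 0 and a median of -0.030, which was 0.076 without CR31B replicate 2 and 0.057 without DMSO replicate 3. CYB561, the cytochrome that supplies electrons for DBH inside the granule, was at 0.20 TPM or less in every library.

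Granule docking and exocytosis held 27 tested genes, of which 9 were above 0, with a median of -0.16. Of the 27, 1 rose and 2 fell, where 3.45% and 4.02% of all genes tested did. With the replicate block 1 was higher and 6 lower, against 5.77% and 6.56%. SYTL4 (granuphilin), which docks dense-core granules, rose from 10.7 ± 1.02 to 19.1 ± 1.43 TPM (SD, n = 4 each; log2 fold change 0.79 with SE 0.11 and limma adjusted p 0.00377). SV2A, a vesicle glycoprotein, fell from 15.9 ± 1.62 to 8.37 ± 0.252 TPM (SD, n = 4 each; log2 fold change -0.85 with SE 0.11 and limma adjusted p 0.00232). The calls of SYTL4 and SV2A held in all 17 alternatives run.

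The vacuolar proton pump acidifies the granule and drives amine uptake. All 18 of its genes were tested, with a median of -0.12, and ATP6V0A1 alone passed, falling from 50.5 ± 6.38 to 33.9 ± 4.46 TPM (SD, n = 4 each; log2 fold change -0.56 with SE 0.14 and limma adjusted p 0.0331; held in 11 of 17 alternatives). The call was lost without CR31B replicates 2 or 4 or DMSO replicates 1, 2 or 3 (limma adjusted p of 0.0563 to 0.0931). With the replicate block 4 of the 18 pump genes passed, all lower, where 6.56% of all genes tested were lower. The pump median was -0.010 without DMSO replicate 1 and -0.20 without CR31B replicate 1. Of 14 catecholamine receptors 2 were tested and none passed the adjusted threshold, while 1 had an unadjusted limma p under 0.05, where 23.4% of all genes tested did. That was ADRA2A, at 4.08 ± 2.52 TPM in DMSO and 1.94 ± 0.404 TPM in CR31B (SD, n = 4 each, limma adjusted p of 0.165). ADRA2A read 7.76 TPM in DMSO replicate 3 and 2.45 to 3.64 TPM in the other DMSO libraries.

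Transmitter identity was examined last. Among 9 tested cholinergic genes CHAT, which makes acetylcholine, passed and was higher, at 19.4, 17.4, 16.1 and 21.6 TPM across DMSO libraries 1 to 4, and 35.1, 26.6, 25.6 and 25.9 TPM across CR31B libraries 1 to 4. Its log2 fold change was 0.58 (SE 0.14, limma adjusted p of 0.0331), and the call held in 9 of 17 alternatives. It was lost without any 1 library other than CR31B replicate 3 (limma adjusted p of 0.0510 to 0.0918). The other cholinergic genes did not pass, and the list median was 0.059, or -0.069 without CR31B replicate 3. SLC18A3, the vesicular acetylcholine transporter, was at 4.68 ± 0.620 TPM in DMSO and 3.68 ± 0.807 TPM in CR31B (SD, n = 4 each; limma adjusted p of 0.308). CHRNA5, a nicotinic receptor subunit, was at 44.5 ± 8.10 TPM in DMSO and 32.3 ± 5.35 TPM in CR31B (SD, n = 4 each; limma adjusted p of 0.127). SLC5A7, the choline transporter, was listed at 0. These 3 genes were chosen after their values were seen. CHAT in DMSO, at 18.6 TPM, lay between CHGB and DDC in level per transcript length. Among 12 tested noradrenergic transcription factors HAND2 rose from 181 ± 16.5 to 271 ± 32.2 TPM (SD, n = 4 each; log2 fold change 0.58 with SE 0.12 and limma adjusted p 0.0188), and the list median was 0.0021, with values of -0.012 to 0.046 on leaving out 1 library. The HAND2 call was lost without DMSO replicate 2 (limma adjusted p of 0.0577). HAND2 shares 867 exon bases with HAND2-AS1 on the opposite strand, at 108.8 to 191.5 TPM in CR31B and 83.0 to 112.6 TPM in DMSO, so its rise is uncertain.

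**Figure D4:**
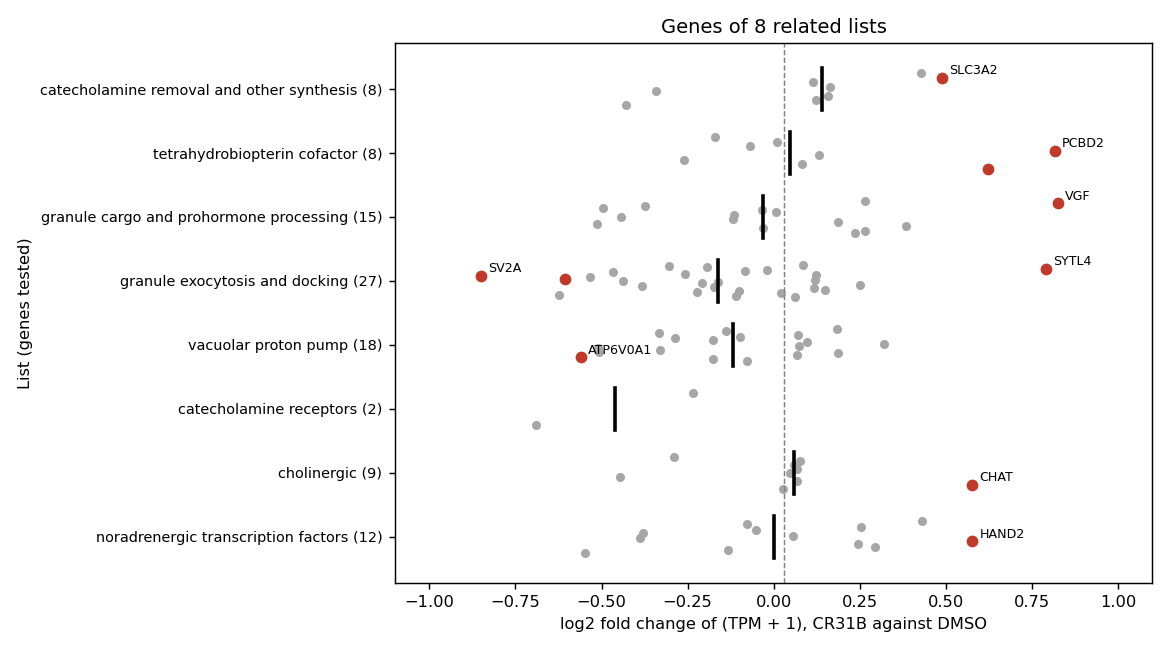
log2 fold change of (TPM + 1) for every tested gene of the 8 lists, with genes past a limma adjusted p of 0.05 in red, those described in the text with their names, list medians as black bars and the median of all genes tested as a dashed line. Of the 10 red points 7 lie to the right and 3 to the left, while list medians lie between -0.46 and 0.14.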

How the data were processed

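The authors deposited 1 table of TPM for 60651 genes in 8 libraries. Per the submitters' processing notes, cutadapt 3.2, Bowtie2 2.3.4.1, STAR 2.7.1a, RSEM 1.2.28 and DESeq2 1.32.0 were used with hg38 (GRCh38), with no roles given; annotation and strand setting are not given in the sources used here. Symbols were found for 60481 identifiers, and GENCODE release 29 gave gene types and transcripts. Values were analysed as log2(TPM + 1) for 11778 genes averaging 1 TPM or more, with limma 3.58.1 (R 4.3.3; lmFit, eBayes with trend), and adjusted by Benjamini-Hochberg over all genes tested. TH and SLC18A2 were fitted without the filter. Exact two-sided permutation tests used all 70 splits. On 5 simulated tables of 11778 genes, 78.8% of genes changed 2-fold were recovered and 5.78% of calls were false. The simulated noise was independent between libraries and no change was under 2-fold, so recovery of smaller changes, as in the members, was not measured. Deviations from the group means correlated at 0.105 to 0.333 between same-numbered libraries and at -0.206 to 0.134 between others. The replicate number was therefore also fitted as a block. For replicate 4 the value of 0.105 lay below the 0.134 between CR31B replicate 4 and DMSO replicate 1. Reads were estimated from the TPM value of 1 read in genes with 1 transcript.

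Named were all members, up to 3 called genes per list in each direction, the most abundant gene of a list with no call, and PNMT, MAOA, PTS, SPR, CYB561, VGF and CHAT. The members and lists were chosen with earlier results of these data known. Some genes and start-site sequences that these rules would name are not reported here.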

Additional observations from a re-analysis of the deposited data

Results flagged for a closer look

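Of 50 groups of 4 libraries examined, 3 held a library far from the other 3, where 2.5 would be expected by chance. CHAT read 35.1 TPM in CR31B replicate 1, where the remaining CR31B libraries lay between 25.6 and 26.6 TPM. SLC3A2 read 201.6 TPM in the same library and between 145.6 and 152.5 TPM in the others. That library also had the highest share of TPM in protein-coding genes, 61.3%, and the part of that share in these values was not tested. SPR read 2.97 TPM in DMSO replicate 3, where the remaining DMSO libraries lay between 2.04 and 2.12 TPM.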

How the results depend on the processing

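With the replicate block, genes called went from 879 to 1453, members called from 0 to 3 and list genes called from 10 to 23. DDC (-0.53), DBH (-0.43) and SCG2 (0.46) then passed; the block changed no other call among the members. With no filter beyond a mean above 0, 442 genes and 4 list genes passed. With the block and no filter together 178 genes and 0 members passed. Members called numbered 1 after rescaling over protein-coding genes (SCG2, 0.50), 1 after quantile normalization (DDC, -0.58) and 1 after centring on the library median (DDC, -0.57). In the same order, genes called over the whole table also rose, to 1227, 1174 and 1177, and list genes called were 14, 18 and 21. Leaving out 1 library gave 405 to 785 genes, 0 to 1 members (SCG2, 0.60, without CR31B replicate 3) and 4 to 11 list genes. DDC ran from -0.64 to -0.40, DBH from -0.57 to -0.25, SCG2 from 0.37 to 0.60 and GCH1 from -0.021, a reversed sign without CR31B replicate 1, to 0.35. The DMSO order of all 10 members was the same without any 1 DMSO library. At a filter of 10 TPM, DDC, GCH1 and SLC6A2 were not tested. The block with no filter, the alternatives for TH and SLC18A2 and the rescaling to coding length were added after seeing the data. The causes of these changes were not tested. Estimated reads limit TH most, with 36 in its lowest library.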

Other observations

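DBH and GCH1 were both highest in replicate 1 and lowest in replicate 3 in each group, while DDC was highest in replicate 3 of each group. The ratio of DBH to DDC within a library was 8.72, 8.72, 4.20 and 7.57 in CR31B replicates 1 to 4 and 8.30, 8.73, 3.61 and 5.82 in DMSO replicates 1 to 4. It was thus lowest in replicate 3 of both groups, and the groups overlapped. This ratio was chosen after the values were seen, and what the replicate number stands for is not given in the sources used here.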
